A study of Mus musculus with 23 samples.

Results

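The 10 genes described here belong to the NRF2 antioxidant pathway: the transcription factor gene *Nfe2l2*, which encodes NRF2, its cytoplasmic inhibitor *Keap1*, and 8 target genes (*Nqo1*, *Gclc*, *Gclm*, *Txnrd1*, *Srxn1*, *Slc7a11*, *Gpx2* and *Gsr*). They were chosen by name from the gene names printed in the array files, which hold 37074 gene names. All 10 were found, by 15 probes, and 12 of these probes passed the filter on dim signals and were tested. The question was whether the ileum of mice given a ligand of the pregnane X receptor (PXR) showed a response of PXR target genes, a response of the antioxidant genes, or both.

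Gene expression was measured with 1-colour Agilent arrays, 1 array per mouse, in the ileum of male mice on the C57Bl6/J background. The groups were wild-type mice given corn oil (WT CONT, n = 6), wild-type mice given pregnenolone 16α-carbonitrile (PCN) in corn oil (WT PCN, n = 5), and mice without PXR given oil (Pxr-/- CONT, n = 6) or PCN (Pxr-/- PCN, n = 6). PCN was injected into the abdomen daily for 4 days at 100 mg/kg, and all mice were killed at ZT6, when 6 h had passed since the final injection. The labels call this the fed state, while the paper describes the mice at ZT6 as semi-fasted. Wild-type mice were bought at 6 weeks of age and Pxr-/- mice had been bred in house for 10 years, so genotype and breeding origin cannot be told apart. The deletion is present in the whole animal, not in 1 cell type, and nothing in the sources used here gives litters or cages.

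NRF2 is normally held in the cytoplasm by KEAP1, which directs it to degradation. Oxidants and electrophiles modify KEAP1, NRF2 then accumulates in the nucleus and, with a small MAF protein, binds antioxidant response elements near genes for glutathione synthesis, thioredoxin recycling and quinone reduction. Control is mainly at the level of the NRF2 protein, so the *Nfe2l2* transcript is not itself a measure of pathway activity. PXR is a nuclear receptor for steroids and foreign compounds that induces cytochromes P450, conjugating enzymes and transporters, some of which (several glutathione S-transferases, *Abcc2*) are also known as NRF2 targets.

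Because NRF2 acts through the antioxidant response element, the promoters of the members are shown first where they hold its core, TGACNNNGC, read on both strands. The letters TGAC are also the start of the AP-1 motif, so a match is a description of letters and not a binding site. Promoter windows from RefSeq (build GRCm38.p6, 250 bases before to 50 bases after each annotated start) were matched by symbol for 8 of the 10 members, *Gclc* and *Gsr* being those without an entry. The core stood in 4 of their 10 windows, against 12.4% of the 32851 windows of all genes. The matches are printed on the strand of the gene with the core in capitals, inside 30 bases.
Nfe2l2 (chr2:75704884-75704913, − strand): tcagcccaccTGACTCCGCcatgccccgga
Gclm (chr3:122245413-122245442, + strand): gctcccgggcGCACCGTCAactctcacgag
Txnrd1 (chr10:82859104-82859133, + strand): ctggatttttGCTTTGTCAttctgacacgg
Srxn1 (chr2:152105542-152105571, + strand): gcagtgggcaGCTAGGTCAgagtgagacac
In *Nfe2l2* the core began 240 bases before the start site and reads along the gene. In *Gclm* (134 bases before), *Txnrd1* (92 bases before, in 1 of its 3 windows) and *Srxn1* (28 bases after) it reads on the other strand, so the capitals are its reverse complement. The windows of *Keap1*, *Nqo1*, *Slc7a11* and *Gpx2* did not hold these letters. Sequence outside the windows was not searched, so an element further away is not shown to be absent.

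All values below are log2 signals after quantile normalization, and a difference of 1 is a doubling. Probe coordinates come from the array's annotation (build mm9), and their place within the transcript was not analysed here. A gene is represented by its brightest tested probe, and signals of different probes are not set against each other. Differences were tested with limma in 1 fit to all 23 arrays with the wash batch as a term, with Benjamini-Hochberg adjustment over 37591 probes, and a gene counted as called when its adjusted p was 0.05 or lower and its fold change above 1.5. The 5 comparisons share groups: PCN against oil in Pxr-/- and the genotypes without PCN both rest on the same 6 Pxr-/- CONT arrays, so a member high or low there enters both. The median spot signal was 74 to 106.5 per array, and between 62.66% and 68.79% of spots were well above background. In 9 of the 10 members the brightest probe was well above background on all 23 arrays, and the exception was *Slc7a11*.

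Of the genes used to read PXR activity, 2 of 3 differed between the genotypes in their response to PCN. *Cyp3a11*, a cytochrome P450 of steroid and drug metabolism and a standard PXR target, had signals of 11.01, 12.51, 12.12, 12.36 and 11.59 in the 5 WT PCN mice, against 6.94 to 9.47 (median 8.44) in WT CONT. It lay between 6.38 and 6.75 in Pxr-/- CONT and between 6.17 and 7.08 in Pxr-/- PCN. PCN raised it by 3.53 in WT (SE 0.321, limma adjusted p 1.21e-06), and the difference between the genotypes in this response was 3.58 (SE 0.443, adjusted p 0.000875). *Cyp2b10*, a related enzyme, rose by 4.61 in WT (SE 0.359, adjusted p 9.52e-08), with a change of 0.72 in Pxr-/- (SE 0.342, adjusted p 0.25, and 0.0381 in a fit to the Pxr-/- groups alone). The difference between these responses was 3.89 (SE 0.496, adjusted p 0.000875). It was 3.48 and did not pass with the scanner's processed signal (adjusted p 0.142), and 4.36 and 3.47 within wash batches 1 and 2 (adjusted p 0.0624 and 0.626). For *Cyp3a11* the difference was 4.09 and 3.19 within the wash batches (adjusted p 0.0678 and 0.562). *Cyp2c55* rose by 3.51 in WT (SE 0.469, adjusted p 0.000155) and its change in Pxr-/- was 1.58 (SE 0.446, adjusted p 0.0502, and 0.05 or lower in 6 of 14 alternatives and without 8 of the 23 arrays in turn), where single mice ranged from 6.84 to 9.91 after PCN and from 6.46 to 7.69 after oil. For *Cyp2c55* the difference between the responses was 1.93 and did not pass (SE 0.647, adjusted p 0.787). The probe for the deleted gene, *Nr1i2*, gave 11.82 to 12.36 in WT CONT and 11.42 to 12.27 in Pxr-/- CONT, ranges that overlap (difference -0.41, SE 0.146, adjusted p 0.336), so it does not check the genotype labels.

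None of the 10 NRF2 pathway genes passed the call in either genotype. In WT, limma called 0 of 10, against 0.852% of 24176 tested gene names, while an unadjusted p under 0.05 was reached by 2 (12.8% of gene names). In Pxr-/-, it called 0 of 10, against 1.19% of gene names, while an unadjusted p under 0.05 was reached by 5 (20.5% of gene names). These shares of all gene names are also the background for the unadjusted counts of the lists below. The median change over the 10 genes was 0.03 in WT, from -0.59 (*Gpx2*) to 0.25 (*Gclc*), and 0.04 in Pxr-/-, from -0.56 (*Gpx2*) to 0.55 (*Gclc*). The medians over all tested gene names were -0.0143 and -0.00113. In both genotypes 6 of the 10 changes were positive.

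**Figure D1:**
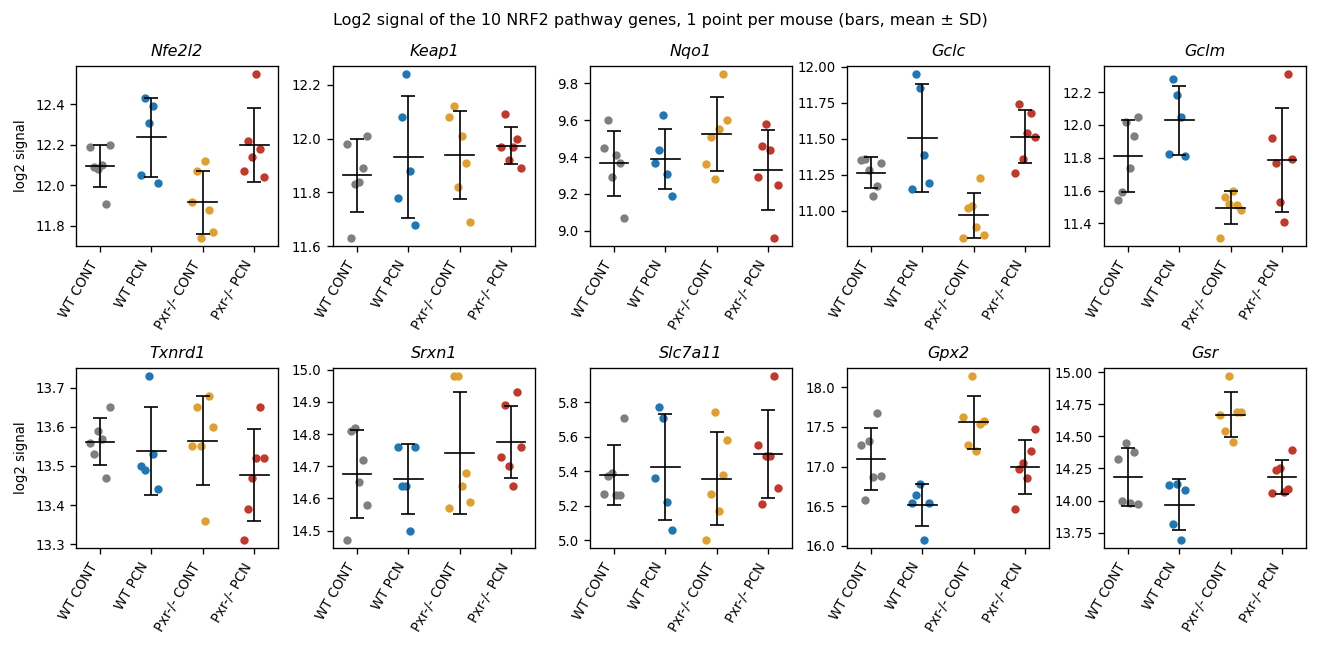
Log2 signal (vertical axes, a separate scale for each gene) of the 10 NRF2 pathway genes in the 4 groups, with 1 point per mouse and the mean ± SD as bars. In *Gclc* all 6 Pxr-/- PCN mice lie above the 6 Pxr-/- CONT mice, in *Gsr* all 6 lie below them, and the other 8 genes overlap between PCN and CONT in both genotypes.

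Without the fold threshold, 2 members passed an adjusted p of 0.05, both in Pxr-/- mice, where 4.08% of gene names did so. They moved in opposite directions and both belong to glutathione metabolism. *Gclc* encodes the catalytic subunit of glutamate-cysteine ligase, the rate-limiting enzyme of glutathione synthesis, and *Gsr* encodes glutathione reductase, which returns oxidized glutathione to its reduced form. Arrays of PCN and CONT did not overlap for 2 of the 10 members in Pxr-/- (2.62% of gene names) and for 0 of 10 in WT (2.86%).

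*Gclc* (probe on chromosome 9, 77641296 to 77641355, + strand) had signals of 10.81 to 11.23 (median 10.96) in Pxr-/- CONT and of 11.26 to 11.74 (median 11.52) in Pxr-/- PCN. The lowest PCN mouse lay just above the highest CONT mouse. The rise was 0.55 (SE 0.114, 95% interval 0.31 to 0.78, adjusted p 0.011), a fold change of 1.46, and 6 of 6 mice lay above the CONT mean. Within wash batch 1 it was 0.55 (SE 0.137, adjusted p 0.36) and within wash batch 2 it was 0.54 (SE 0.19, adjusted p 0.179), so the size was kept and the adjusted p rose above 0.05 with 3 mice per group. In the table of values deposited by the authors it was 0.55 (SE 0.114, adjusted p 0.0102). Without Pxr-/- CONT replicate 5 or without Pxr-/- PCN replicate 1 it was 0.59 (adjusted p 0.0144 in each case), which passes the fold threshold.

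In WT the *Gclc* signals were 11.10 to 11.36 (median 11.30) after oil and 11.15, 11.95, 11.85, 11.39 and 11.19 after PCN, in the order of replicates 1 to 5. Replicates 2 and 3 were high, replicate 4 lay just above the range of the oil group and replicates 1 and 5 lay inside it. The change was 0.25 (SE 0.12, adjusted p 0.414). The same pair of arrays had by far the highest level of 5 B cell markers (*Cd79a*, *Cd79b*, *Ms4a1*, *Cr2*, *Fcer2a*), with mean log2 signals of 10.17 and 10.28, against 7.44 to 7.50 in the other WT PCN mice and 6.97 to 7.31 in WT CONT. Of the 5 markers, 0 were called in WT by limma, although all 5 had an unadjusted p under 0.05. Without this pair the change of *Gclc* in WT was 0.00 (SE 0.0946, adjusted p 0.998). The pair also held the highest *Gclc* signals of the group, so leaving it out lowers the change whatever its B cell content. The part of B cells in the change was not tested. In Pxr-/- PCN the highest B cell marker level, 8.64 in replicate 1, went with the lowest *Gclc* signal of that group, 11.26. This is 1 mouse, with a marker level under those of the WT pair, and the part of B cells was not tested there either.

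The difference between the genotypes in the *Gclc* response (WT minus Pxr-/-) was -0.29 and did not pass the test (SE 0.166, 95% interval -0.64 to 0.05, adjusted p 0.999). Without the pair of arrays high in B cell markers, a setting added after the data were seen, it was -0.55 (SE 0.122, adjusted p 0.179). Since that pair was also the highest of its group in *Gclc*, its removal moves this difference down by construction. The oil groups differed by -0.30 (Pxr-/- minus WT, SE 0.114, adjusted p 0.4), with all 6 Pxr-/- mice under the WT mean, and the PCN groups by 0.00 (SE 0.12, adjusted p 1). The mean signals were 11.27 in WT CONT, 11.50 in WT PCN, 10.97 in Pxr-/- CONT and 11.52 in Pxr-/- PCN. In bulk tissue a lower number of cells that express a gene and less RNA per cell cannot be told apart.

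*Gsr* (chromosome 8, 34808488 to 34808547, + strand) was highest in Pxr-/- mice given oil. Its signals were 14.46 to 14.97 (median 14.68) in Pxr-/- CONT and 14.06 to 14.39 (median 14.16) in Pxr-/- PCN, without overlap. It was lower by 0.48 with PCN in Pxr-/- (SE 0.107, 95% interval -0.71 to -0.26, adjusted p 0.0156), and 6 of 6 PCN mice lay under the CONT mean. Within wash batch 1 the change was -0.32 (SE 0.158, adjusted p 0.73) and within wash batch 2 -0.64 (SE 0.135, adjusted p 0.0587), while the deposited table gave -0.49 (SE 0.107, adjusted p 0.0154). In WT it was 13.97 to 14.45 (median 14.16) after oil and 14.12, 13.82, 14.13, 13.69 and 14.08 after PCN, a change of -0.21 (SE 0.113, adjusted p 0.479). The difference between these responses was 0.27 (SE 0.155, adjusted p 0.999).

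*Gsr* was also the member that separated the genotypes most clearly without PCN. All 6 Pxr-/- CONT mice lay above all 6 WT CONT mice, with a difference of 0.49 (SE 0.107, adjusted p 0.0578). It was the only 1 of the 10 members without overlap in this comparison, where 1.13% of gene names did not overlap. Its adjusted p fell to 0.0373 with the slide as a random block, to 0.0101 with the slide as a fixed block and to 0.0229 with the replicate number as a block. It also fell below 0.05 without WT CONT replicate 3 (0.0427), WT PCN replicate 4 (0.046), Pxr-/- CONT replicate 4 (0.0415) or Pxr-/- PCN replicate 5 (0.041). Within the wash batches the difference was 0.32 (adjusted p 0.989) and 0.66 (adjusted p 0.293). By the call, limma found 0 of 10 members without PCN (0.174% of gene names), with 5 members at an unadjusted p under 0.05 (9.5% of gene names). With PCN it found 0 of 10 (0.455% of gene names), with 1 member at an unadjusted p under 0.05 (7.52% of gene names), and 0 of 10 did not overlap (1.11% of gene names). After PCN the *Gsr* mean in Pxr-/- mice, 14.18, was the same as that of WT CONT, 14.18.

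*Gpx2*, a glutathione peroxidase of the gut epithelium that reduces hydroperoxides, ran beside *Gsr*. Its signals (chromosome 12, 77893402 to 77893461, − strand) were 16.58 to 17.67 (median 17.08) in WT CONT and 16.54, 16.64, 16.78, 16.07 and 16.54 in WT PCN. In Pxr-/- they were 17.19 to 18.14 (median 17.56) after oil and 16.46 to 17.47 (median 17.01) after PCN. The PCN groups lay lower in both genotypes but overlapped the oil groups. The changes were -0.59 in WT (SE 0.195, adjusted p 0.173, 5 of 5 mice under the CONT mean) and -0.56 in Pxr-/- (SE 0.185, adjusted p 0.0931, 6 of 6). With the slide as a fixed block the Pxr-/- value was -0.64 (adjusted p 0.0251), and without Pxr-/- PCN replicate 6 it was -0.67 (adjusted p 0.0454), so both pass the call. Within the wash batches it was -0.23 and -0.89. The genotypes differed by 0.46 without PCN (SE 0.185, adjusted p 0.443).

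Over the 23 arrays *Gpx2* and *Gsr* had a Pearson correlation of 0.90, and 0.83 after removal of group and wash batch means. It is given as a description, since the arrays share groups, batches and a normalization. *Gpx2* was the gene most like *Gsr* among all tested gene names, while the gene most like *Gpx2* was *Gpx2-ps1* (correlation 0.94), a pseudogene whose probe may bind *Gpx2* transcript. *Nfe2l2* ran opposite to *Gsr*, with a correlation of -0.77 (-0.69 within groups and batches), and to *Gpx2*, with -0.66 (-0.43).

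*Nfe2l2*, the gene of the factor itself, has a probe on chromosome 2 (75513771 to 75513830, − strand). It had signals of 11.74 to 12.12 (median 11.90) in Pxr-/- CONT and 12.04 to 12.55 (median 12.16) in Pxr-/- PCN. The groups overlapped, and 6 of 6 PCN mice lay above the CONT mean, with a change of 0.28 (SE 0.0816, 95% interval 0.12 to 0.45, adjusted p 0.053). The adjusted p lay on the other side of the threshold with the scanner's processed signal (0.0426), normexp background correction (0.0441), the stricter filter (0.0493) and the slide as a random (0.04) or fixed block (0.025), at changes of 0.27 to 0.33. It did so too without WT PCN replicate 2 (0.0373), Pxr-/- CONT replicate 4 (0.0459), Pxr-/- PCN replicate 6 (0.0241) or both arrays high in B cell markers (0.0403), while over all 14 alternatives other than leaving out 1 array it ran from 0.025 to 0.754. In WT the change was 0.16 (SE 0.0858, adjusted p 0.495), with PCN mice at 12.05, 12.43, 12.31, 12.39 and 12.01 around a CONT median of 12.09. A dimmer probe of the gene (75529291 to 75529350) differed by 0.09 in WT and by 0.06 in Pxr-/- (adjusted p 0.909 and 0.871). *Keap1*, which encodes the inhibitor, differed by 0.08 in WT and 0.04 in Pxr-/- (adjusted p 0.786 and 0.845, chromosome 9).

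The other targets changed by less than 0.3. *Gclm*, the modifier subunit that partners GCLC (chromosome 3, 121967737 to 121967796, + strand), had group means of 11.81 in WT CONT, 12.03 in WT PCN, 11.50 in Pxr-/- CONT and 11.79 in Pxr-/- PCN. Its changes with PCN were 0.22 in WT (SE 0.134, adjusted p 0.557) and 0.29 in Pxr-/- (SE 0.127, adjusted p 0.202), and 6 of 6 Pxr-/- CONT mice lay under the WT CONT mean (-0.31, SE 0.127, adjusted p 0.443). As in *Gclc*, the highest WT PCN mice were replicates 2 and 3, at 12.28 and 12.18. Without that pair the change of *Gclm* in WT was 0.09 (adjusted p 0.884), a fall that leaving out the highest arrays brings by construction. The pair held the highest signals of the WT PCN group for 6 of the 10 members (*Keap1*, *Nqo1*, *Gclc*, *Gclm*, *Slc7a11* and *Gpx2*). The share of all gene names with the same order of arrays was not computed, so this count is not a result about the members.

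*Nqo1*, a quinone reductase often used as the reporter of NRF2 activity (chromosome 8, 109912440 to 109912499, − strand), did not follow *Gclc*. Its signals were 9.07 to 9.60 in WT CONT, 9.37, 9.44, 9.63, 9.31 and 9.19 in WT PCN, 9.28 to 9.85 in Pxr-/- CONT and 8.96 to 9.58 in Pxr-/- PCN. The groups overlapped throughout. The change was 0.03 in WT (SE 0.114, 95% interval -0.21 to 0.27, adjusted p 0.962) and -0.20 in Pxr-/- (SE 0.108, interval -0.42 to 0.03, adjusted p 0.33).

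*Txnrd1*, the cytosolic thioredoxin reductase, and *Srxn1*, the sulfiredoxin that repairs oxidized peroxiredoxins, had group means close to each other. *Txnrd1* (chromosome 10) had means of 13.56, 13.54, 13.56 and 13.48 in WT CONT, WT PCN, Pxr-/- CONT and Pxr-/- PCN. Its changes were -0.02 (95% interval -0.16 to 0.13) in WT and -0.09 (interval -0.22 to 0.05) in Pxr-/-. A second probe of *Txnrd1* gave 0.01 in WT and -0.25 in Pxr-/- (adjusted p 0.994 and 0.204). *Srxn1* (chromosome 2) had means of 14.68, 14.66, 14.74 and 14.78, with changes of -0.02 (interval -0.20 to 0.17) and 0.04 (interval -0.14 to 0.21). For these genes the intervals leave no room for a change as large as the 1.5-fold threshold in either genotype, by their brightest probes.

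*Slc7a11*, the cystine transporter that supplies glutathione synthesis, was at the edge of detection. Its brightest probe (chromosome 3, 50176047 to 50176106, − strand) was well above background on 9 of 23 arrays, 1 in WT CONT, 2 in WT PCN and 3 in each Pxr-/- group, and its other 3 probes were not tested. Group means were 5.38, 5.42, 5.36 and 5.50, in the same order of groups as above, and the changes were 0.04 and 0.14 (adjusted p 0.961 and 0.625). At this signal a change was not detectable and is not shown to be absent.

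**Figure D2:**
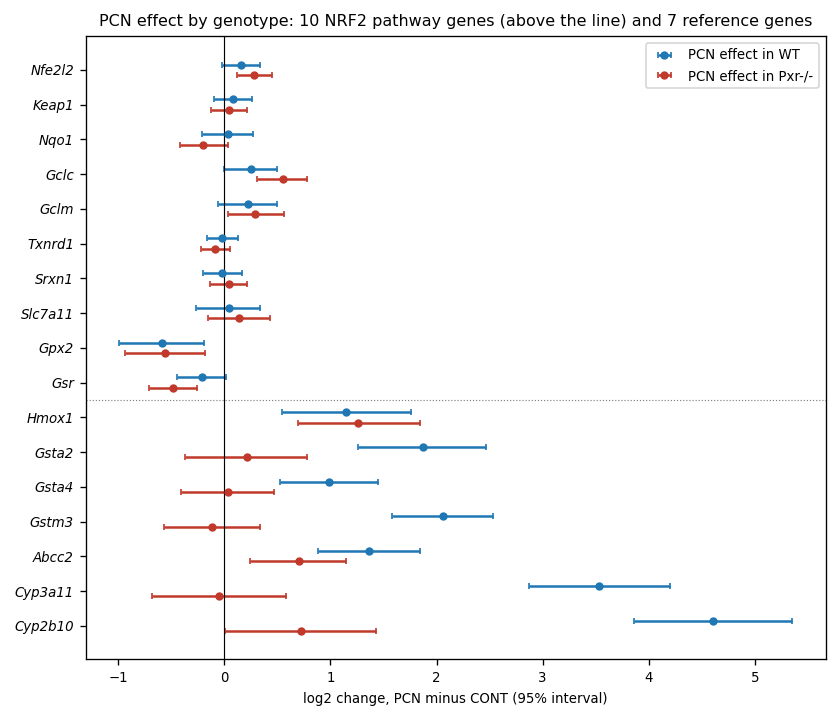
Change with PCN (log2, horizontal axis, with its 95% interval) in WT and Pxr-/- mice for the 10 NRF2 pathway genes, above the dotted line, and 7 reference genes under it. The NRF2 pathway genes lie between -0.59 and 0.55, while *Cyp3a11* and *Cyp2b10* reach 3.53 and 4.61 in WT and *Hmox1* lies at 1.15 and 1.26.

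No difference between the genotypes in the response to PCN passed the test among the 10 members. Limma called 0 of 10 in the interaction (0.0951% of gene names), 0 had an unadjusted p under 0.05 (4.69% of gene names), and the differences ran from -0.29 (*Gclc*) to 0.27 (*Gsr*) with an adjusted p of 0.999 each. These p-values do not show that the genotypes responded alike.

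Around the members, no gene of the core antioxidant machinery was called. Among 9 genes that regulate NRF2 (*Nfe2l1*, small MAF, BACH and ubiquitin ligase genes, *Sqstm1*), limma called 0 in WT and 0 in Pxr-/-, with 1 and 0 at an unadjusted p under 0.05, and medians of 0.04 and -0.02. Among 19 glutathione and thioredoxin enzymes it called 0 and 0, with 6 and 3 at an unadjusted p under 0.05 and medians of 0.01 and 0.02. *Txn2*, the mitochondrial thioredoxin, passed the adjusted p in Pxr-/- without the fold, at -0.25 (SE 0.0668, adjusted p 0.0366). Among 6 genes of NADPH supply the calls were 0 and 0 (0 and 1 at an unadjusted p under 0.05), and among 7 genes of superoxide and peroxide removal outside NRF2 they were 0 and 0 (1 and 4). The medians of these lists were -0.02 and -0.05, and 0.05 and 0.13.

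A larger change on the antioxidant side was that of *Hmox1*, heme oxygenase, which degrades heme and is a target of NRF2 that is also controlled by other factors, BACH1 among them. Its signals were 8.14 to 8.28 (median 8.21) in WT CONT and 9.25, 10.58, 8.54, 9.42 and 9.25 in WT PCN, and 7.84 to 8.60 (median 8.30) in Pxr-/- CONT and 8.87 to 10.94 (median 9.18) in Pxr-/- PCN. In both genotypes all PCN mice lay above all CONT mice, where 2.86% of gene names did not overlap in WT and 2.62% in Pxr-/-. *Hmox1* rose by 1.26 in Pxr-/- (SE 0.279, adjusted p 0.0155) and was the only 1 of 8 heme and iron genes called there (1.19% of gene names). In WT 0 of the 8 were called (0.852% of gene names), with 2 at an unadjusted p under 0.05, and the change of *Hmox1* was 1.15 (SE 0.294, adjusted p 0.0544). The WT value passed the adjusted p with the slide as a random block (0.0454) and in a fit to the WT groups alone (0.046), and without WT PCN replicate 3 (0.0322), Pxr-/- PCN replicate 3 (0.0357) or Pxr-/- PCN replicate 5 (0.0158). Within wash batches 1 and 2 the changes were 0.81 and 1.44 in WT and 0.85 (adjusted p 0.405) and 1.68 (adjusted p 0.0998) in Pxr-/-. Without WT PCN replicate 2 it was 0.90 (adjusted p 0.182), and without Pxr-/- PCN replicate 5 the Pxr-/- value was 1.02 (adjusted p 0.0389). The difference between the genotypes was -0.11 (SE 0.405, adjusted p 0.999).

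Some neutrophil markers were higher in the PCN mice as well. Of 6 such markers (*S100a8*, *S100a9*, *Ly6g*, *Cxcr2*, *Csf3r*, *Mmp8*) limma called 2 higher with PCN in each genotype, *S100a8* (1.64 in WT, 2.54 in Pxr-/-) and *S100a9* (2.16 and 2.91), against 0.757% of gene names called higher in WT and 0.951% in Pxr-/-. The other 4 were not called: *Cxcr2* differed by 0.58 and 0.63, *Mmp8* by 0.24 and 0.24, *Csf3r* by 0.03 and -0.06 and *Ly6g*, a surface marker of mouse neutrophils, by -0.26 and -0.23. The mean of the list thus rests mostly on *S100a8* and *S100a9*. An unadjusted p under 0.05 was reached by 5 of the 6 in each genotype, a count that takes changes in either direction. The mean signal of the 6 markers was 7.41 to 8.02 in WT CONT, 8.15 to 9.11 in WT PCN, 7.77 to 8.18 in Pxr-/- CONT and 8.41 to 9.62 in Pxr-/- PCN. The 3 mice with the highest *Hmox1* (Pxr-/- PCN replicate 5 at 10.94, WT PCN replicate 2 at 10.58 and Pxr-/- PCN replicate 1 at 10.30) were the 3 with the highest marker mean, at 9.62, 9.11 and 9.21. *Cxcr2* and *Mmp8* were well above background on 10 and 20 of the 23 arrays. The part of these cells in the change of *Hmox1* was not tested.

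**Figure D3:**
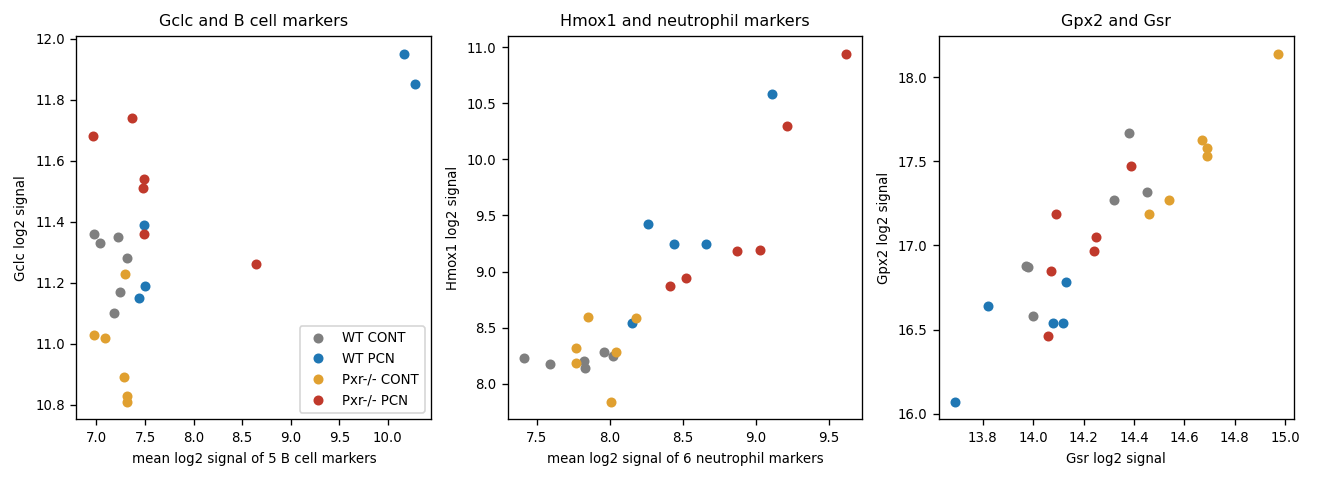
Left, *Gclc* against the mean of 5 B cell markers, middle, *Hmox1* against the mean of 6 neutrophil markers, right, *Gpx2* against *Gsr* (all axes log2 signal, 1 point per mouse, coloured by group as in the legend). WT PCN replicates 2 and 3 stand apart at B cell marker means of 10.17 and 10.28, and the 3 mice with the highest *Hmox1* have neutrophil marker means of 9.11 to 9.62.

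Some markers of other cells were also higher with PCN, and more of them were called in Pxr-/- mice, where *Gclc* and *Gsr* passed the adjusted p. With PCN limma called 3 of 6 fibroblast markers higher (*Col1a1*, *Col3a1*, *Lum*, by 0.81 to 1.04), 3 of 6 smooth muscle markers (*Tagln*, *Cnn1*, *Actg2*, by 0.59 to 0.67) and 1 of 7 macrophage markers (*Cd68*, 0.60), against 0.951% of gene names called higher, and it called 0 of 5 B cell markers (0 with an unadjusted p under 0.05). In WT, where 0.757% of gene names were called higher, 1 of 6 fibroblast markers was called (*Lum*, 0.70), with 0 of 6 smooth muscle (4 at an unadjusted p under 0.05) and 0 of 7 macrophage markers (1). All 6 fibroblast and all 6 smooth muscle markers were higher in both genotypes (medians 0.34 and 0.37 in WT, 0.71 and 0.54 in Pxr-/-). In the interaction limma called 0 of either list, with 0 at an unadjusted p under 0.05 (0.0951% and 4.69% of gene names). The mean signal of the fibroblast markers was 11.83 to 12.59 in Pxr-/- CONT and 12.58 to 13.32 in Pxr-/- PCN, and that of the smooth muscle markers 14.14 to 14.67 and 14.46 to 15.34. The macrophage marker mean was 10.74 to 11.43 and 11.19 to 11.59. The 8 markers of ileal epithelium, among them the bile acid genes *Fabp6* and *Slc10a2*, were above background on all 23 arrays, and 0 were called in either genotype (1 in WT and 3 in Pxr-/- at an unadjusted p under 0.05), nor were the 6 crypt and stem cell markers (0 called, 1 in each) or the 5 tested markers of proximal small intestine and liver (0 called, 0 in each). The epithelial marker mean was 15.38 to 15.75 in Pxr-/- CONT and 15.33 to 15.62 in Pxr-/- PCN. The part of these cells in the changes of *Gclc* and *Gsr* was not tested.

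Some conjugation and efflux genes rose with PCN in WT, in a list with several genes that both factors are known to control. Of 22 tested genes limma called 6 higher in WT, 5 glutathione S-transferases (*Gstm3* by 2.06, *Gsta2* by 1.87, *Gsta4* by 0.99, *Gstm1* by 0.81 and *Gstm4* by 0.73) and *Abcc2*, an exporter of glutathione conjugates, by 1.36, against 0.757% of gene names called higher. The adjusted p of these 6 was 1.83e-05 to 0.0258. In Pxr-/- it called 0 of 22, with 5 at an unadjusted p under 0.05, and 1 rose at an adjusted p of 0.05 or lower without the fold (4.08% of gene names passed so in either direction). There the 22 genes changed by -0.39 to 0.70, and the 6 called in WT by -0.16 to 0.70 (*Abcc2*, SE 0.221, adjusted p 0.0796). *Abcc2* passed the call in Pxr-/- with the slide as a fixed block (0.85, adjusted p 0.0343) and without Pxr-/- CONT replicate 4 (0.89, adjusted p 0.0173). The list's median change was 0.28 in WT and 0.03 in Pxr-/-. The difference in response was called for 1 gene, *Gstm3* (2.17, SE 0.318, adjusted p 0.00299, 0.091% of gene names called higher), and was 0.67 to 1.66 for the other 5 with adjusted p of 0.091 to 0.999. Between the PCN groups all 6 genes were lower in Pxr-/-, by -1.02 (*Gstm4*) to -2.47 (*Gstm3*), against 0.389% of gene names called lower. Without the pair of WT PCN arrays high in B cell markers the WT calls of *Gsta4* (0.81, adjusted p 0.187) and *Gstm4* (0.59, adjusted p 0.0701) were lost, as was the difference of *Abcc2* between the PCN groups (-1.08, adjusted p 0.0812). The *Gsta4* call was also lost without any 1 of WT CONT replicates 3 to 6 or WT PCN replicates 2 to 4 (adjusted p up to 0.0866), with the slide as a fixed block (0.84, adjusted p 0.107), with the replicate number as a block (0.98, adjusted p 0.0613) and in a fit to the WT groups alone (1.01, adjusted p 0.0716), which also lost *Gstm4* (0.72, adjusted p 0.0643). With the slide as a fixed block, *Gsta2* between the PCN groups (-1.68, adjusted p 0.0618) no longer passed, nor did the *Gstm3* difference in response (2.06, adjusted p 0.0954). All 6 WT calls were lost within wash batch 2, at changes of 0.53 (*Gstm4*) to 1.6 (*Gstm3*) and adjusted p of 0.0773 to 0.542. Those of *Gsta4* (1.55, adjusted p 0.112) and *Abcc2* (1.29, adjusted p 0.449) were also lost within wash batch 1. Between the PCN groups *Gstm3* alone still passed within wash batch 2, and *Abcc2* failed within wash batch 1 (-1.33, adjusted p 0.316). The *Gstm3* difference in response was 1.68 within wash batch 2 (adjusted p 0.738). Probes of glutathione S-transferase genes may bind transcripts of related genes, and this was not separated.

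**Figure D4:**
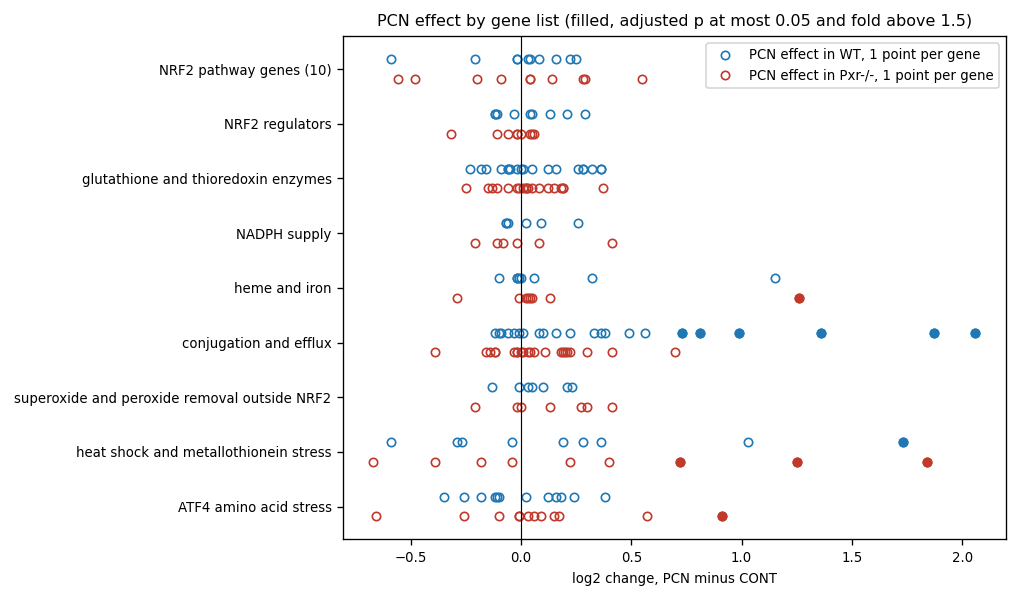
Change with PCN (log2, horizontal axis) of every tested gene in the 10 NRF2 pathway genes and 8 related lists (rows), in WT and Pxr-/- mice, with filled points for genes called. Filled points are absent from the NRF2 pathway genes, and in the conjugation and efflux list all 6 filled points belong to WT.

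Stress genes outside NRF2 were called in part. Of 9 heat shock and metallothionein genes limma called 1 higher in WT, *Mt2* (1.73, SE 0.436, adjusted p 0.0494), and 3 in Pxr-/-, *Mt2* (1.84, SE 0.415, adjusted p 0.0176), *Mt1* (1.25, SE 0.276, adjusted p 0.0156) and *Hspb1* (0.72, SE 0.182, adjusted p 0.0293), against 0.757% and 0.951% of gene names called higher. *Mt1* and *Mt2* bind metals and *Hspb1* is a small heat shock protein. The WT call of *Mt2* was lost in 10 of 14 alternatives, the deposited table among them (adjusted p 0.0504), and when 17 of the 23 arrays were each left out (adjusted p up to 0.141). In Pxr-/- mice *Mt2* missed the threshold when PCN replicate 1 was left out (1.65, adjusted p 0.0501), and the call of *Hspb1* was lost without 6 different Pxr-/- arrays in turn (adjusted p up to 0.0861). Of 12 genes of the ATF4 amino acid response, 0 were called in WT (2 at an unadjusted p under 0.05) and 1 in Pxr-/-, *Trib3*, a pseudokinase (0.91, SE 0.16, adjusted p 0.00367). None of these lists had a gene called in the interaction by limma, with 0 and 1 genes at an unadjusted p under 0.05.

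By their likeness over the 23 arrays, measured as Pearson's correlation, the genes nearest to the members were mostly not the other members. The nearest gene was *Akr1c19* for *Gclc* (0.84), *Fmo5* for *Gclm* (0.87), *Abcd3* for *Nfe2l2* (0.75), *5033418A18Rik* for *Keap1* (0.85), *Mrpl54* for *Nqo1* (0.81), *Slc7a6os* for *Txnrd1* (0.77) and *Anpep* for *Srxn1* (0.80). For *Slc7a11*, mostly under background, it was an unnamed transcribed region (0.72).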

How the data were processed

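The study hybridised ileal RNA to 23 arrays, read with Agilent Feature Extraction 10.10.1.1 per the labels. The scanner files deposited by the authors hold linear spot intensity, and their table holds log2 values of 37161 probes after a signal filter, a wash batch correction and CrossNorm normalization. The main values were computed from the median spot intensity, so that spots and background could be checked. Control and outlier spots were left out, spots of a probe averaged on the log2 scale and arrays quantile normalized. The deposited log2 table was used as an alternative. Probes were tested if in any group no less than 50% of arrays put them well above background (37591 of 56605, 61 values missing), by limma 3.58.1 in R 4.3.3, which fitted the 4 groups plus wash batch and was tested on simulated data. The precision is limited by the 5 or 6 arrays per group. Each p-value sets a difference of group means against the spread between mice, pooled over the 4 groups and moderated by limma across probes. All members are named, *Hmox1*, *Cyp3a11*, *Cyp2b10*, *Cyp2c55* and *Nr1i2* whatever they showed, from each other list at most 4 called genes per contrast by size, and for each member the gene most correlated with it. Other genes given with values (*Txn2*, *Gstm1*, *Gstm4*, uncalled neutrophil markers) were chosen after their values were seen. The members and lists were chosen with earlier results of these data known. *Gsta1* has no probe of that name, *Cyp7a1* was not tested and 1 cell type marker is not reported here. The alternatives were other signals, scalings and filters, slide or replicate blocks, fewer groups, each wash batch and each array left out.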

Additional observations from a re-analysis of the deposited data

Results flagged for a closer look

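Within the groups of mice, 2 of 48 sets of values held a mouse whose gap to the next exceeded Dixon's critical value, and chance flags about 1 in 20 groups. *Nfe2l2* was highest, at 12.55, in Pxr-/- PCN replicate 4, where the next mouse lay at 12.22, and without this mouse the change in Pxr-/- was 0.23 (adjusted p 0.0961). *Slc7a11* was highest, at 5.71, in WT CONT replicate 6, a signal near background.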

How the results depend on the processing

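The count of members called was 0 in all 5 comparisons. For PCN in Pxr-/- it was 2 with the slide as a fixed block (*Gclc* and *Gpx2*), 2 without the fold threshold (*Gclc* and *Gsr*), and 0 to 1 when 1 array was left out, with 1 reached without Pxr-/- CONT replicate 5 or Pxr-/- PCN replicate 1 (*Gclc*) and without Pxr-/- PCN replicate 6 (*Gpx2*). In the other 4 comparisons it stayed 0 in every alternative run. Of the members' 685 values under alternatives other than leaving out 1 array, 626 kept direction and side of the threshold, 4 lost an adjusted p of at most 0.05, 10 gained it and 2 changed sign. These were *Gsr* in the interaction within wash batch 1 (-0.01) and *Nqo1* for genotype without PCN within wash batch 2 (-0.05). The other 43 kept their side of the threshold and changed sign or rounded to 0, from values within their SE of 0. *Hspb1*, genotype under PCN, changed sign with the slide as a fixed block (-0.01) and without the WT PCN arrays high in B cell markers (-0.07). The cause was not tested. With 1 array left out, 1080 of 1150 values kept direction and side, 62 within their SE of 0 changed sign or rounded to 0, and 8 gained the threshold. Replicate numbers are shared by the groups, but same-numbered mice did not deviate together (median correlation -0.033 over 33 pairs, 5 of them above 0.1). The numbers were therefore not used as pairs in the main fit, although such correlations cannot exclude a pairing. With the replicate block 0 members were called for PCN in Pxr-/- and *Gsr* without PCN was 0.49 (adjusted p 0.0229). Signal limits *Slc7a11* alone among the members.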
